A study of Homo sapiens with 9 samples.

Results

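The RNA levels of 10 genes that make, break down or sense polyamines were described in human Ewing sarcoma cells grown in mice. They are 10 of the 34934 rows of the deposited table and were taken by symbol: ODC1, AMD1, SRM and SMS of synthesis, SAT1 and SMOX of catabolism, the antizymes OAZ1 and OAZ2, the antizyme inhibitor AZIN1, and the translation factor EIF5A. All 10 had a row and passed the filter on low counts. The cells were of TC71, an established Ewing sarcoma line. In each group, 100 cells had been placed under the skin of the flank of NSG mice, which lack mature lymphocytes, and once tumours measured 1.5 cm the tumour cells were recovered from each site by flow cytometry. The groups were bone marrow metastases (4 libraries), lung metastases (4 libraries) and the primary tumour (1 library). The labels name no treatment, genotype, age or sex that sets the groups apart, no marker used for the sort, and no mouse for any library, so p-values measure only how these libraries scatter, which may be technical. One cell line was used, so nothing here extends to other tumours.

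Putrescine is made from ornithine by ODC1. AMD1 decarboxylates S-adenosylmethionine, and SRM and SMS use the product to turn putrescine into spermidine and spermidine into spermine. SAT1 acetylates spermidine and spermine for export or oxidation, and SMOX oxidises spermine back to spermidine. Polyamines promote a ribosomal frameshift on the antizyme messages, and antizyme then carries ODC1 protein to the proteasome. AZIN1, a relative of ODC1 without its activity, binds antizyme in its place. Spermidine also donates the group that turns 1 lysine of EIF5A into hypusine, which the factor needs for translation. Much of this control acts on translation and protein stability, which RNA levels do not report.

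The antizyme frameshift sites and the codon of the EIF5A lysine made into hypusine are shown first, because they tie the members to each other. In both antizymes the ribosome slips forward at a stop codon. The sites were found as TCCTGATG in GENCODE release 29 transcripts (GRCh38), in 7 of 11 annotated transcripts of OAZ1 (chromosome 19, 2269509 to 2273490, plus strand) and in 5 of 9 of OAZ2 (chromosome 15, 64687573 to 64703281, minus strand). The 30 bases around each site follow, 5′ to 3′, with the last codon of the first frame and the stop codon in capitals.
OAZ1: cctcggtggtgcTCCTGAtgcccctcaccc
OAZ2: cctctgtggtgcTCCTGAtgcccctcaccc
The hypusine codon is codon 50 of EIF5A (chromosome 17, 7306999 to 7312463, plus strand). It is shown in capitals within 27 bases for EIF5A, for EIF5AL1 (chromosome 10, 79512601 to 79516440, plus strand) and for EIF5A2 (chromosome 3, 170888415 to 170908693, minus strand).
EIF5A: tcgaagactggcAAGcacggccacgcc
EIF5AL1: tcgaagactggcAAGcacggccacgcc
EIF5A2: tccaaaactggaAAGcatggtcatgcc
Over the whole coding sequence EIF5A and EIF5AL1 shared 460 of 465 bases (98.9%), and EIF5A and EIF5A2 shared 333 of 465 aligned positions (71.6%). Reads of EIF5A and EIF5AL1 can therefore be split between them by the counting, and EIF5AL1 took 3.39% to 4.66% of their summed CPM (counts scaled to library size) in bone marrow, 3.96% to 5.05% in lung and 4.19% in the primary library.

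Libraries held between 11550000 and 17910000 estimated counts (rounded). Every bone marrow library was deeper than every lung library and held a higher percent of reads assigned to human (78.6 ± 0.688% against 75.3 ± 1.97%, SD, n = 4 each) and a lower percent of mitochondrial ribosomal RNA (0.158 ± 0.056% against 0.432 ± 0.0656%). The percent of reads not aligned was 19.4 in bone marrow and 22.2 in lung on average. Each of these 4 differences gave p = 0.0286 in an exact permutation test (two-sided), which is as small as 8 libraries in 2 equal groups allow, and 0.0357 after adjustment over 5 measures. The 13 transcripts encoded by the mitochondrial genome all had a lower fitted level in bone marrow. Their summed level overlapped between the sites, at 3028 to 13433 CPM in bone marrow and 10930 to 14197 in lung. The part of these differences in any result that follows was not tested. Of 12 markers of Ewing sarcoma cells, 11 were tested, 5 with a higher fitted level in bone marrow and 6 in lung. The summed level of the 12 was 2015 to 2738 CPM in bone marrow, 1960 to 2576 in lung and 3070 in the primary library. CD99 and STEAP1 were high throughout, but other markers varied widely. LIPI was at 0.07 CPM in lung library 2 and 217 in lung library 3, and EWSR1 at 668 in bone marrow library 3 and 82.0 in lung library 3. FLI1, whose end forms part of the fusion gene of most Ewing sarcomas, was listed at no more than 0.764 CPM in any library. Leukocyte markers (4 of 12 tested, CSF1R at 0 throughout) summed to 1.63 to 8.51 CPM in bone marrow and 0.508 to 17.3 in lung. Red cell markers (5 of 9 tested, ALAS2 at 0 throughout) summed to 17.2 to 111 and 3.70 to 172 CPM.

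Between bone marrow and lung, ODC1 and AMD1 leaned opposite ways and neither passed the test over all genes. Of the 10 members, 6 had a higher fitted level in bone marrow and 4 in lung, with a median log2 fold change of 0.04 against 0.00 over all tested genes. The edgeR quasi-likelihood test called 0 of 10 at an adjusted p below 0.05, where it called 0.00587% of all 17042 genes tested. At an unadjusted p below 0.05 it took 1 of 10, ODC1, where 10.2% of all genes passed. DESeq2 called 0 of 10 where it called 3.38% of all genes, and limma voom also called 0. The biological coefficient of variation over all genes was 0.925, so single genes varied widely within a site. In these cells fewer cells of a type and less RNA per cell cannot be told apart. Fold changes below are log2, positive where bone marrow is higher, and levels are CPM after TMM scaling for library composition.

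**Figure D1:**
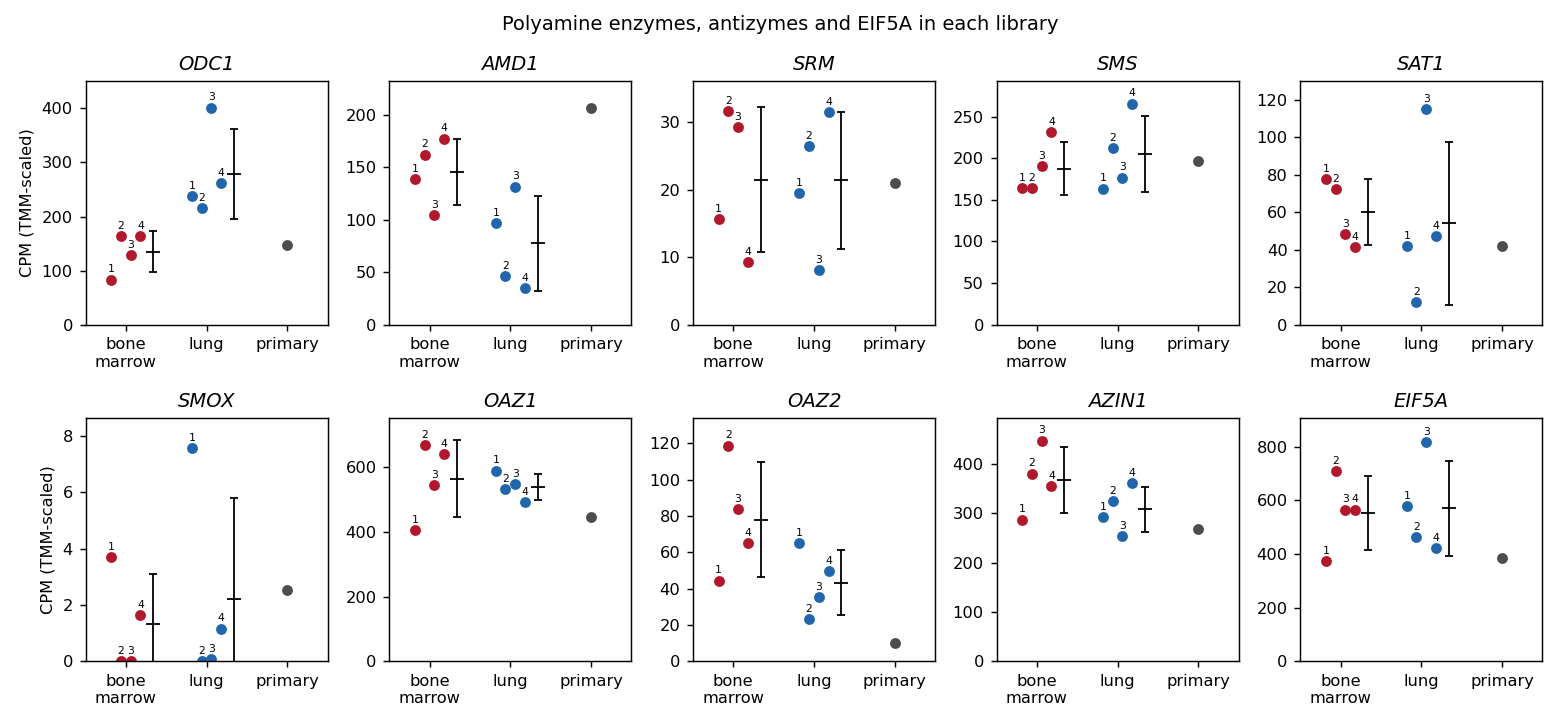
Level of each of the 10 members in each library (CPM, TMM-scaled, linear axes from 0). Points are libraries numbered by replicate, and bars are the mean ± SD over 4 libraries. ODC1 is the member whose 4 lung points all lie above its 4 bone marrow points, and the other 9 overlap.

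ODC1, the first and usually rate-limiting enzyme of the pathway (chromosome 2, 10439968 to 10448504, minus strand), was at 83.4, 164, 128 and 164 CPM in bone marrow libraries 1 to 4. In lung libraries 1 to 4 it was at 238, 215, 401 and 261 CPM, and in the primary library at 147 CPM. Every lung library lay above every bone marrow library, as held for 3.06% of all tested genes, and the primary library lay within the bone marrow range. The mean of the 4 bone marrow libraries was 135 ± 38.1 CPM (SD) and that of the 4 lung libraries 279 ± 83.7. In edgeR the log2 fold change of -1.05 ± 0.30 (SE) had a p of 0.00637 before adjustment and 0.381 after, 0.0603 after adjustment in DESeq2 and 0.276 in limma voom. The highest lung value, library 3, and the lowest bone marrow value, library 1, weighed on this size: with both left out it was -0.66 (adjusted p 0.414). The small nucleolar RNA gene SNORA80B lies within ODC1, and reads of the pair were not separated here.

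AMD1, which supplies the aminopropyl donor (chromosome 6, 110874770 to 110895713, plus strand), was at 139, 162, 105 and 178 CPM in bone marrow. In lung it was at 97.2, 46.5, 132 and 34.6 CPM, and the primary library had the highest level of all 9, at 207 CPM. The sites overlapped because lung library 3 lay above bone marrow library 3. Bone marrow averaged 146 ± 31.7 CPM and lung 77.5 ± 45.2 (SD). The fitted difference was 0.91 ± 0.43 (edgeR p 0.0617, adjusted 0.487).

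The ratio of ODC1 to AMD1 combines these 2 leanings. It was taken on CPM + 1 and is not per length, so a value of 1 does not mean equal numbers of molecules. In bone marrow it was 0.604, 1.01, 1.22 and 0.922, in lung 2.43, 4.55, 3.03 and 7.37, and in the primary library 0.713. The lowest lung ratio was above the highest bone marrow ratio, and the primary library lay within the bone marrow range. On the log2 scale the ratio was -0.14 ± 0.43 in bone marrow and 1.99 ± 0.70 in lung (SD, n = 4 each), a difference of -2.12 that stayed between -2.36 and -1.82 with any 1 metastasis library left out. This ratio was picked with these levels known, so it carries no test. A complete separation in this direction was also common for other genes: 14.7% of them separated when set over AMD1, and 33.9% when set under ODC1. Across the 9 libraries the levels of ODC1 and AMD1 had a Pearson correlation of -0.38 on log2(CPM + 1), which the difference between sites enters.

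**Figure D2:**
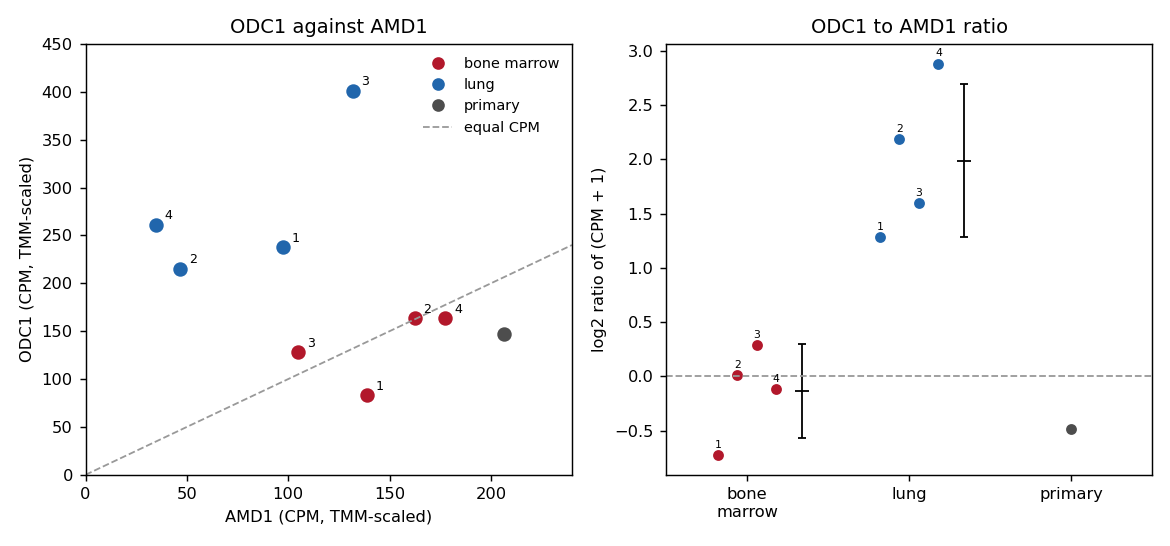
Left, ODC1 against AMD1 in each library (CPM, TMM-scaled, linear axes from 0), with a dashed line at equal CPM. Right, log2 ratio of ODC1 to AMD1 on CPM + 1, with bars at the mean ± SD over 4 libraries. The 4 lung libraries lie between 1.28 and 2.88, above the 4 bone marrow libraries and the primary library at -0.49.

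The later enzymes of synthesis did not separate the sites. Spermidine synthase SRM (chromosome 1, 11054584 to 11060024, minus strand) was at 15.6, 31.7, 29.3 and 9.32 CPM in bone marrow, 19.5, 26.5, 8.03 and 31.5 in lung and 21.0 in the primary library. Its libraries spread about as widely within each site, and the log2 fold change was 0.0065 ± 0.57. Spermine synthase SMS (chromosome X, 21940573 to 21994835, plus strand) was at 164, 164, 190 and 231 CPM in bone marrow, 163, 212, 177 and 266 in lung and 197 in the primary library. It was among the steadiest members, with a log2 fold change of -0.13 ± 0.23.

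Of the catabolic enzymes, SAT1 was detected in every library, while SMOX ranged from 0 to 89 counts between libraries. SAT1 (chromosome X, 23783173 to 23786226, plus strand) was at 77.6, 72.4, 48.4 and 41.4 CPM in bone marrow, 42.0, 12.2, 115 and 47.2 in lung and 41.9 in the primary library. Lung held both its lowest and its highest library, and the log2 fold change was 0.15 ± 0.59, which became -0.18 without lung library 2 and 0.83 without lung library 3. SMOX (chromosome 20, 4120980 to 4187747, plus strand) had 50, 0, 0 and 25 counts in bone marrow, 89, 0, 1 and 16 in lung and 33 in the primary library. A count of 0 allows up to 3 counts, or 0.183 to 0.211 CPM in the 3 libraries concerned, a limit that covers counting error only. Its log2 fold change of -0.72 ± 1.94 gives no direction.

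Synthesis was set against catabolism as the mean log2(CPM + 1) of ODC1, AMD1, SRM and SMS minus that of SAT1 and SMOX. Synthesis alone was 6.52 ± 0.22 in bone marrow, 6.54 ± 0.06 in lung and 6.75 in the primary library, with ODC1 lower and AMD1 higher in bone marrow inside this mean. Catabolism was 3.39 ± 0.63, 3.24 ± 1.00 and 3.62. The balance was 1.97, 3.68, 3.74 and 3.12 in bone marrow, 2.30, 4.60, 3.10 and 3.21 in lung and 3.13 in the primary library. The sites overlapped throughout, and their difference of -0.18 was below the SD within either site (0.82 and 0.96). It changed sign without bone marrow library 1 (0.22) or lung library 2 (0.26), and was -0.50 without lung library 1. As the log2 ratio of summed CPM the difference was -0.72. The lowest value of each site fell in library 1, where SMOX was highest.

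**Figure D3:**
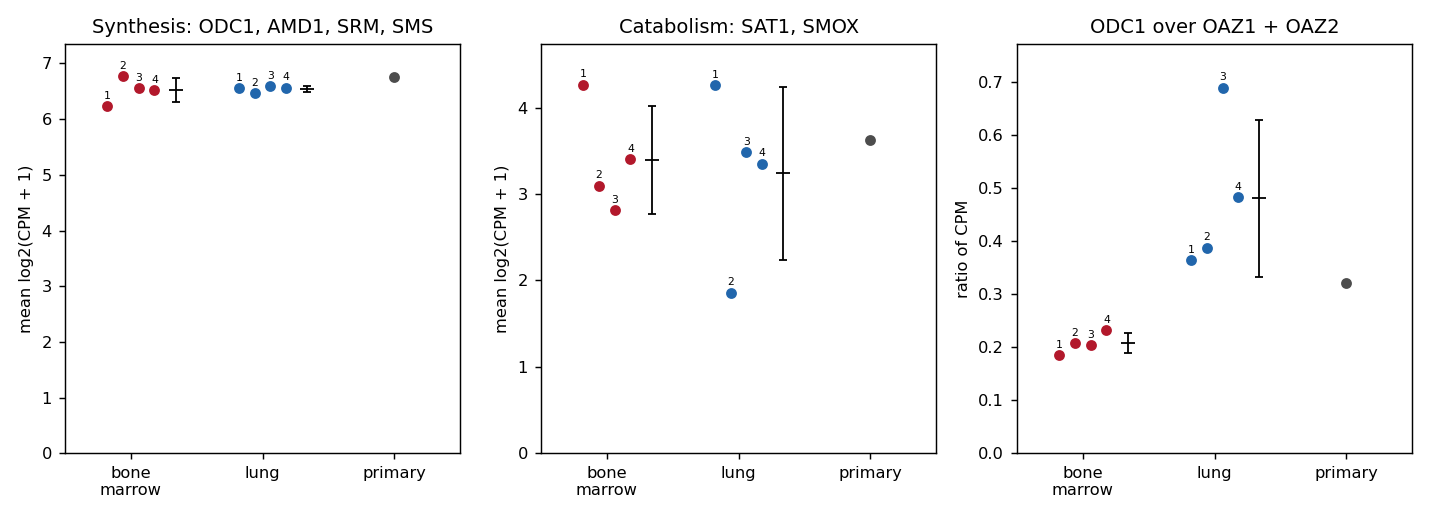
Mean log2(CPM + 1) of the 4 synthesis genes (left) and of the 2 catabolic genes (middle), and the ratio of ODC1 to summed antizyme CPM (right), in each library, with axes from 0 and bars at the mean ± SD over 4 libraries. Synthesis and catabolism overlap between sites, while the ODC1 to antizyme ratio is 0.185 to 0.232 in bone marrow, 0.364 to 0.689 in lung and 0.321 in the primary library.

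Of the antizymes, OAZ1 was abundant and steady, and OAZ2 was lower and more variable. OAZ1 was at 405, 667, 544 and 640 CPM in bone marrow, 589, 531, 547 and 492 in lung and 447 in the primary library, with a log2 fold change of 0.06 ± 0.19. OAZ1 overlaps JSRP1 and AC005258.1, and no source used here states whether counting used strand. OAZ2 was at 44.4, 119, 83.9 and 65.1 CPM in bone marrow and 64.9, 23.4, 35.2 and 49.8 CPM in lung. Its primary library, at 9.97 CPM and 130 counts, was the lowest of all 9. The log2 fold change between sites was 0.85 ± 0.43 (edgeR adjusted p 0.497). The span of OAZ2 overlaps those of AC100830.1, AC100830.2 and AC100830.3, and whether their reads were kept apart was not tested. OAZ2 made up 9.23% to 15.1% of summed antizyme CPM in bone marrow, 4.23% to 9.92% in lung and 2.18% in the primary library, and these shares overlapped between the sites.

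ODC1 relative to its antizymes, a ratio also picked with the levels known, followed ODC1. It was 0.185, 0.208, 0.204 and 0.232 in bone marrow, 0.364, 0.388, 0.689 and 0.482 in lung and 0.321 in the primary library. The sites did not overlap, and here the primary library lay between them. Such a separation was also seen for 33.9% of the other genes when each was set under ODC1. That share used single genes on CPM + 1, while the antizyme ratio used summed CPM with nothing added. AZIN1 was at 287, 380, 447 and 354 CPM in bone marrow, 292, 325, 253 and 361 in lung and 268 in the primary library, with a log2 fold change of 0.25 ± 0.20, or 0.15 without bone marrow library 3. The span of AZIN1 overlaps those of AP003354.1, AP003696.1 and its antisense gene AZIN1-AS1, and whether their reads were kept apart was not tested. Relative to the antizymes AZIN1 was at 0.483 to 0.711 in bone marrow, 0.435 to 0.666 in lung and 0.587 in the primary library.

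EIF5A was at 372, 708, 566 and 565 CPM in bone marrow, 579, 463, 818 and 423 in lung and 384 in the primary library. The log2 fold change was -0.05 ± 0.27, and the sites overlapped, with the lowest value in bone marrow library 1 and the highest in lung library 3. EIF5A shares part of its locus with GPS2. With EIF5A and EIF5AL1 counts summed, an alternative chosen after seeing the data, 0 of 10 members were called in either comparison.

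**Figure D4:**
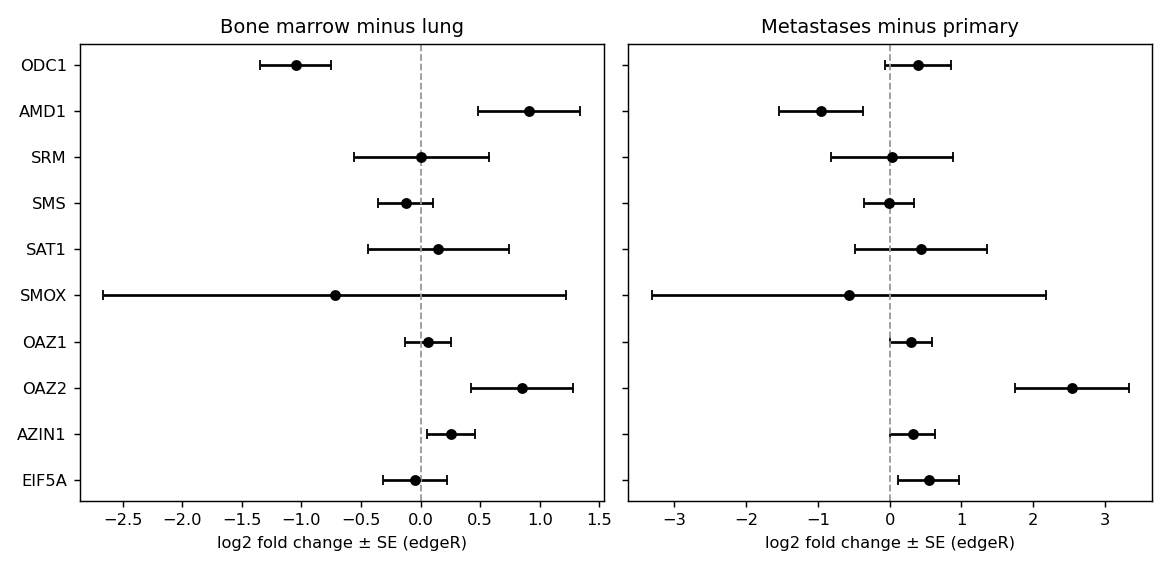
Log2 fold change of each member ± SE from the edgeR model, for bone marrow minus lung (left) and metastases minus primary (right). The largest leanings are ODC1 (-1.05) and AMD1 (0.91) on the left and OAZ2 (2.54) on the right, and none passed the adjusted threshold in edgeR.

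Against the primary tumour, 7 of the 10 members had a higher fitted level in the metastases, with a median log2 fold change of 0.31 where that of all tested genes was 0.17. The primary tumour had 1 library, so the test asked whether that library lay outside the spread of the 8 others, with no replicate check. edgeR called 0 of 10, with 0% of all genes called, and took 1 of 10, OAZ2, at an unadjusted p below 0.05, as for 4.79% of all genes. For OAZ2 the log2 fold change was 2.54 ± 0.79 (edgeR p 0.0105, adjusted 0.799). DESeq2 called it with an adjusted p of 0.0385, where it called 0.576% of all genes higher in metastases, and limma voom called 0 of 10. In edgeR the log2 fold change of OAZ2 was 2.97 for bone marrow against the primary library and 2.12 for lung against it. These 2 comparisons share the primary library, and their difference is the comparison of the sites given above. OAZ2 lay below all 8 metastasis libraries in the primary tumour, as did 7.56% of all genes, and AMD1 lay above all 8, as did 10.1%. For AMD1 the log2 fold change was -0.96 ± 0.58 and for ODC1 0.40 ± 0.46 (edgeR adjusted p 1.00 each). Without lung library 3 that of ODC1 was 0.24.

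Levels were compared between members as CPM per kilobase of the longest annotated transcript, with which the deposited counts need not match. In lung the order was EIF5A at 378 ± 118, OAZ1 at 191 ± 14.2, SMS at 111 ± 24.8, ODC1 at 105 ± 31.6 and AZIN1 at 65.2 ± 9.72 CPM per kb. SAT1 at 47.7 ± 38.3, SRM at 16.9 ± 8.02, AMD1 at 16.3 ± 9.53, OAZ2 at 6.10 ± 2.53 and SMOX at 0.947 ± 1.55 followed. The neighbours SMS and ODC1, and SRM and AMD1, differed by less than the SD of either gene. AZIN1 and SAT1, and SAT1 and SRM, differed by less than the SD of SAT1 alone. In bone marrow EIF5A (366 ± 91.2), OAZ1 (199 ± 41.8) and SMS (102 ± 17.2) also led. There AZIN1 (77.7 ± 14.0) came next, ahead of SAT1 (52.8 ± 15.6) and ODC1 (50.8 ± 14.3), which differed by less than the SD of either. AMD1 (30.7 ± 6.69), SRM (17.0 ± 8.49), OAZ2 (10.99 ± 4.44) and SMOX (0.574 ± 0.756) came last, and SRM and OAZ2 differed by less than the SD of SRM. In the primary library the levels ran from 254 CPM per kb for EIF5A, through 158 for OAZ1, 107 for SMS, 56.8 for AZIN1, 55.4 for ODC1, 43.5 for AMD1, 36.9 for SAT1, 16.6 for SRM and 1.40 for OAZ2, to 1.09 for SMOX. Per kilobase of the mean coding transcript, EIF5A and OAZ1 still held the 2 highest places and SMOX the lowest, and of the 10 places 1 in bone marrow, 2 in lung and 8 in the primary library were held by the same member.

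Genes that feed the pathway were read from the same model, from 7 lists chosen with earlier results of these data known. edgeR called 0 genes of these lists in either comparison. DESeq2 called 1, SLC12A8, between the sites, where it called 3.38% of all genes. Of the ornithine and arginine list 9 of 10 genes were tested, 5 higher in bone marrow and 4 in lung. In edgeR 2 had an unadjusted p below 0.05, where 10.2% of all genes did. ALDH18A1, which makes the precursor of proline and ornithine, was at 59.1, 181, 323 and 186 CPM in bone marrow and 47.9, 42.9, 124 and 62.7 CPM in lung (edgeR adjusted p 0.470). ARG1, the liver arginase, had no counts in bone marrow and was at 2.38, 0.211, 0 and 0.0726 CPM in lung. ASS1, which joins citrulline to aspartate, was at 0.222, 1.71, 15.8 and 6.97 CPM in bone marrow, and in lung it was detected in library 4 alone (1.45 CPM). The ornithine aminotransferase OAT was at 44.3 ± 18.04 CPM in bone marrow and 72.4 ± 30.5 in lung.

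The methionine cycle and salvage list, which supplies and recovers the sulphur compounds around AMD1, had 11 of 11 genes tested, 4 higher in bone marrow and 7 in lung (median -0.28). The salvage enzyme ADI1 was at 213, 332, 330 and 322 CPM in bone marrow and 384, 334, 461 and 360 CPM in lung (edgeR adjusted p 0.538). Every lung library of ADI1 lay above every bone marrow library, as held for 3.06% of all tested genes. MAT1A, the liver form of the enzyme that makes S-adenosylmethionine, had no counts in bone marrow and was detected in lung libraries 1 (3.14 CPM) and 4 (0.145 CPM). MAT2A, the form of other tissues, was at 66.7 ± 16.5 and 98.9 ± 36.0 CPM, and its regulatory partner MAT2B at 316 ± 149 and 237 ± 48.5 CPM. Of 4 genes of hypusination and EIF5A paralogs, 1 was higher in bone marrow and 3 in lung. DOHH, which completes hypusine, was at 2.89, 7.44, 6.53 and 7.36 CPM in bone marrow and 1.61, 3.24, 0.662 and 0.145 CPM in lung (log2 fold change 2.09 ± 0.89, edgeR adjusted p 0.486). DHPS, which starts it, leaned the other way at 19.6 ± 8.45 and 37.5 ± 30.7 CPM. EIF5AL1 was at 21.4 ± 2.94 and 25.0 ± 6.08 CPM, and EIF5A2 at 71.9 ± 13.6 and 75.4 ± 27.9 CPM.

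The polyamine transport list had 13 of 15 genes tested, 4 higher in bone marrow and 9 in lung (median -0.09). SLC12A8, a solute carrier placed in this list, was at 0, 0.183, 7.99 and 4.37 CPM in bone marrow and had no counts in the 4 lung libraries (edgeR adjusted p 0.436, DESeq2 0.0344). Bone marrow libraries 3 and 4 carried nearly all of its counts. The cystine importer SLC7A11 was at 14.2 ± 9.14 and 27.2 ± 16.9 CPM, SLC22A16 was detected in lung library 4 alone (2.54 CPM), and ATP13A4 did not exceed 1.16 CPM in any library. Of the further interconversion and antizyme genes 3 of 5 were tested. AGMAT was at 0.585 ± 0.338 and 1.33 ± 1.31 CPM, the antizyme OAZ3 at 0.366 to 7.70 CPM in bone marrow and 0.845 to 5.23 in lung, and the second acetyltransferase SAT2 at 20.0 ± 5.11 and 22.7 ± 18.02 CPM. Of the other translation factors, which are elongation factors and the initiation factors EIF5 and EIF5B, 7 of 8 were tested, 4 higher in bone marrow and 3 in lung. EEF1A1, which brings transfer RNAs to the ribosome, was at 564, 1024, 717 and 827 CPM in bone marrow and 1143, 1162, 2708 and 1312 CPM in lung (log2 fold change -1.01 ± 0.32, edgeR adjusted p 0.418). For EEF1A1 too the lung libraries all lay above those of bone marrow, as held for 3.06% of all tested genes. EIF5 was at 744 ± 75.3 and 996 ± 345 CPM, EEF2 at 292 ± 90.8 and 243 ± 82.3, and EEF1D at 162 ± 67.6 and 195 ± 74.0.

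Against the primary library 5 genes of these lists had an unadjusted edgeR p below 0.05, where 4.79% of all genes did, and they are named after their values were seen. In the primary library the mitochondrial arginase ARG2 (12.9 CPM), the arginine importer SLC7A1 (3.53 CPM) and the salvage enzyme APIP (12.7 CPM) were below all 8 metastasis libraries. The methyltransferase GNMT (2.07 CPM) and the initiation factor EIF5B (461 CPM) were above all 8. EIF5B had the smallest p of them (log2 fold change -2.16 ± 0.56, edgeR p 0.00395, adjusted 0.611).

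EEF1A1 was also among the 5 genes whose levels ran most like ODC1 over the 9 libraries, with a Pearson r of 0.960 on log2(CPM + 1) among 6125 genes compared. The others were PPP1R14B (0.986), NGFRAP1 (0.974), POLE4 (0.971) and C19orf43 (0.969). For AMD1 they were POLI (0.955), ASPH (0.936), SEC63 (0.934), NFX1 (0.928) and OS9 (0.922). These are the highest of many correlations over libraries that share site and depth, so they are descriptions. PPP1R14B followed ODC1 in having its lowest level, 6.07 CPM, in bone marrow library 1 and its highest, 76.3 CPM, in lung library 3. POLI followed AMD1 in having its lowest level, 1.16 CPM, in lung library 4 and its highest, 84.7 CPM, in the primary library.

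Of 7 transcription factors known to act on ODC1, 2 were higher in bone marrow and 5 in lung. MYC, the activator of ODC1 that is best known, was at 525, 399, 295 and 611 CPM in bone marrow, 239, 329, 444 and 117 in lung and 458 in the primary library. Its sites overlapped, and its log2 fold change of 0.70 ± 0.40 (edgeR adjusted p 0.537) had the opposite sign to that of ODC1. MYCN did not exceed 0.352 CPM outside bone marrow library 3, where it was at 4.24 CPM. MXI1, an antagonist of MYC, was at 41.3 ± 8.93 and 55.1 ± 29.9 CPM. Another antagonist, MXD1, was at 4.12 ± 2.65 and 14.9 ± 12.2 CPM (log2 fold change -1.85 ± 0.82, edgeR adjusted p 0.486).

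MYC and MAX bind the E-box CACGTG, which reads the same on both strands, so the start-site windows of the members were searched for it. RefSeq windows (GRCh38.p14, 250 bases before to 50 after a start) were matched for 8 members, 16 windows in all, and 2 of these held the E-box, where 7.26% of 35116 windows did (2548). They belong to ODC1, in 1 of its 2 windows, and to SRM. Both follow with the E-boxes in capitals, beside the AMD1 window at its annotated gene start, which has none. The ODC1 window shown lies inside the gene. The other ODC1 window, which covers its annotated gene start (chr2:10448278-10448577), has none, like that of AMD1. The windows shown are therefore not matched in position. The window of SMS, also a synthesis gene, has none. The ODC1 window shown is chr2:10447963-10448262 (minus strand), that of SRM chr1:11059969-11060268 (minus strand) and that of AMD1 chr6:110874535-110874834 (plus strand).
ODC1: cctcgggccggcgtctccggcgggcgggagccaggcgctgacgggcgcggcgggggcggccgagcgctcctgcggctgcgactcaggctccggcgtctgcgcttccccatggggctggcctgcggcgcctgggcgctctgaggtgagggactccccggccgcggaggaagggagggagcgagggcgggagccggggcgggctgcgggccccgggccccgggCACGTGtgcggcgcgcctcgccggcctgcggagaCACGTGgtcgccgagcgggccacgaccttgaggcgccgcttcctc
SRM: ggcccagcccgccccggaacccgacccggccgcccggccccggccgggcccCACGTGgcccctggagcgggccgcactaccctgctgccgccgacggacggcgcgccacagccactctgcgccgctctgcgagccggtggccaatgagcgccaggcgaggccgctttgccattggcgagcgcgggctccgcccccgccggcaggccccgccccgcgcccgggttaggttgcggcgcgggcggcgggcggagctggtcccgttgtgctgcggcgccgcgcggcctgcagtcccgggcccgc
AMD1: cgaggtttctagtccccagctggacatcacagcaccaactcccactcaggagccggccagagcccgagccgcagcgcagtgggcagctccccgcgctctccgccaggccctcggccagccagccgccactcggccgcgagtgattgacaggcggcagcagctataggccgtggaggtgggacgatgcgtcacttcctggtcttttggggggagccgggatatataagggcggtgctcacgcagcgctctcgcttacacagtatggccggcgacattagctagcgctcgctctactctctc
The ODC1 window shown holds 2 E-boxes and that of SRM 1. The letters are a description and show no binding.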

How the data were processed

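RNA was measured in 9 libraries. The authors' deposited table gives estimated counts per gene symbol, with fractions. The submitters' processing notes list Trim Galore, Salmon and the build hg38, with no versions. Another deposited table gives the percent of reads per species and the fraction of reads per counting category for each library. How the authors made those, and the strand setting, are not given in the sources used here. Counts were rounded, and 12 vector rows and 92 spike-in rows were left out (vector rows held at most 0.0133% of a library's counts). After filterByExpr 17042 genes were fitted in edgeR 4.0.16 with TMM scaling and 3 groups, and called where the two-sided p, adjusted by Benjamini-Hochberg over all of them, was below 0.05. Standard errors were derived from the F statistic.

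Alternatives were DESeq2 1.42.0, limma 3.58.1 voom with quality weights, scaling by median-ratio size factors or by library size alone, no filter or one of at least 5 CPM in 4 libraries, a replicate block, the 8 metastasis libraries alone, and libraries left out. The ODC1 to AMD1 ratio and the shares of other genes set against ODC1 or AMD1 used CPM + 1. Ratios to the antizymes and the shares of OAZ2 and EIF5AL1 used CPM with nothing added. The edgeR script was first run on counts simulated from the dispersions fitted to these data, which cannot show that the model suits these libraries.

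The members and lists were chosen with earlier results of these data known. By rule, text names all members, the 4 genes per list with the smallest unadjusted p between sites (fewer where fewer were tested), and the 5 genes most like ODC1 and AMD1 (average log2 CPM of at least 4). Sequences come from GENCODE release 29 and RefSeq tables, and AZIN1 was left out of the window search. All 36 pairs of libraries differed beyond sampling noise (lowest chi-square per degree of freedom 79.9). Bone marrow library 1 lay farther from the other bone marrow libraries (188 to 212) than from the lung libraries (147 to 169) or the primary library (137).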

Additional observations from a re-analysis of the deposited data

Results flagged for a closer look

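SMOX stood at 7.55 CPM in lung library 1, far from the other 3 lung libraries, which had 0 to 1.16 CPM. The share of EIF5AL1 in the summed CPM of EIF5A and EIF5AL1 was 5.05% in lung library 4, where the other 3 lung libraries had 3.96% to 4.11%. Of 32 groups of 4 libraries tested for such a gap these 2 were found, and chance alone gives about 1 in 20.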

How the results depend on the processing

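Of 338 values of single members under other settings, 307 kept their direction and their side of the threshold, 30 changed sign and 1, OAZ2, newly passed. With DESeq2, 1 member (OAZ2, log2 fold change 2.54) was called in metastases against the primary library and 1 pathway gene (SLC12A8) between the sites. Under every other setting 0 members were called. Of the sign changes between sites, library size alone gave -0.11 for SRM and -0.019 for OAZ1, and the filter of at least 5 CPM gave -0.099 and -0.030. Limma voom gave -0.19 for SRM and 0.082 for EIF5A. For SRM the 8 metastasis libraries alone gave -0.016. Leaving out bone marrow library 1 and lung library 3 together gave -0.15 for SRM and 0.32 for EIF5A. Against the primary library SRM was at -0.055 with library size alone and -0.11 in voom, and SMS at 0.0056 in voom and 0.048 without those 2 libraries. With 1 library left out, values between sites ranged from -0.26 to 0.26 for SRM, -0.24 to 0.024 for SMS, -0.18 to 0.83 for SAT1, -1.98 to 1.66 for SMOX, -0.026 to 0.21 for OAZ1, 0.15 to 0.37 for AZIN1 and -0.19 to 0.19 for EIF5A. Against the primary library they ranged from -0.098 to 0.15 for SRM and -0.084 to 0.019 for SMS. The cause was not tested. With mean coding length, 1 of 10 members kept its place in the level order in bone marrow, 2 in lung and 8 in the primary library. The balance of synthesis and catabolism was -0.72 between sites as a log2 ratio of summed CPM. With the replicate number as a block between sites, ODC1 was at -1.07 (adjusted p 0.610), SRM at -0.0098, and 0 members were called. No label says that a replicate number marks a mouse, so the numbers were not taken to pair libraries. Deviations of same-numbered libraries correlated at -0.056 to 0.037, which cannot show whether they came from the same mouse. SMOX reached at most 89 counts and was at 0 in 3 libraries, and SLC12A8 reached at most 115 and was at 0 in 5.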
